A study of Mus musculus with 5 samples.

Results

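Icos-positive T cells were 531 of the 26845 skin cells that passed the cell filters, out of 27317 deposited barcodes. A cell was taken as a member by its own counts of unique molecular identifiers (UMIs, each one counted mRNA molecule). It held at least 1 UMI over Cd3d, Cd3e and Cd3g, the CD3 chains of the T cell receptor, and at least 1 UMI of Icos. It also held under 50 UMIs per 10000 of the class II antigen presentation genes H2-Aa, H2-Ab1 and Cd74, and under 50 per 10000 of the basal keratins Krt5 and Krt14. Barcodes under 200 genes or over 10% mitochondrial UMIs had first been set aside. The cells were thus selected on their measured UMIs of these 9 genes, whose levels are given as a description only.

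All live-sorted cells of C57BL/6 mouse skin were profiled by droplet single-cell RNA sequencing (10x Genomics 3′ v1 chemistry). The 3 wounded libraries came from 7-week-old mice given a 6 mm punch wound, and 4 days later a disc of 10 mm around the wound region was taken. The 2 un-wounded libraries came from normal skin, and the age of those mice is not given in the sources used here. The labels name no other allele, transgene or agent, and nothing in them ties a library to one animal. The p-values below therefore measure the spread between these libraries.

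ICOS is a costimulatory receptor of the CD28 family. T cells put it on their surface after activation, it binds ICOS ligand on antigen-presenting and other cells, and it signals through phosphoinositide 3-kinase. In mouse skin it is known from regulatory T cells, which carry the transcription factor Foxp3 and restrain inflammation, and from effector T cells, among them those that make interleukin 17. Icos lies on the plus strand of chromosome 1 (chr1:60977927-61000320, GRCm38). Its relatives sit beside it: Ctla4, an inhibitory receptor, ends 62.1 kb before Icos starts, and Cd28, the founding receptor of the family, ends 114 kb before Ctla4 starts.

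Libraries held 33537809 to 59621412 UMIs. The members had a median of 3900, 3642.5 and 4438 UMIs in wounded libraries 1, 2 and 3, against 2204.5 and 3603 in un-wounded libraries 1 and 2. Un-wounded library 1 gave only 22 members, and these were also the shallowest. Pairs of libraries shared 26 to 63 cell barcodes, none of them a member in both. Replicates of one group differed by more than counting error in the members' summed counts (chi-square per degree of freedom 3.13 to 7.76). Expression below is in CPM, a gene's share of the UMIs summed over a class of cells in a library, in the usual CPM unit. In such sums, fewer cells with a gene and less of its RNA per cell cannot be told apart.

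The rule required a UMI of CD3 and of Icos, so the counts of these genes only describe the cells. Cd3g had a UMI in 496 of the 531 members, Cd3d in 424 and Cd3e in 357, and 44 members rested on a single CD3 UMI. Cxcr6, a chemokine receptor of T cells that live in tissues and not a gene of the rule, was detected in 317 members. The median member held 3 Icos UMIs and the highest 22. Of the 531, 145 members held 1 Icos UMI and 154 held at least 5. At the limits of the rule, no member had 40 to 50 class II UMIs per 10000, while 3 cells with CD3 and Icos UMIs fell just outside at 50 to 60. For the keratins, 2 members lay at 40 to 50 and no cell lay at 50 to 60. In all, 58 cells were outside the class II limit and 8 outside the keratin limit. Keratinocyte-gated cells without CD3 UMIs had an Icos UMI in 0.0977 to 0.699% of cells per library, and fibroblast-gated cells in 0.242 to 1.65%.

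The members' sums also held UMIs of markers of other cells. Summed over 8 collagen and other fibroblast markers, members had 12349, 7060.5 and 4951 CPM in wounded libraries, against 992 and 12081 CPM in un-wounded ones. The keratinocyte markers summed to 9964, 400.1 and 267 CPM in wounded libraries, against 6996 and 9033 CPM in un-wounded ones. Ms4a1, Jchain and Mzb1, 3 of 5 markers of B and plasma cells, had no UMI in any member. For scale, the 14 genes of the T cell receptor complex and lineage list summed to 5948, 4440.2 and 5343 CPM in wounded libraries, against 7302 and 4366 CPM in un-wounded ones. That list includes Cd3d, Cd3e and Cd3g, which the rule required, and the keratinocyte list includes Krt5 and Krt14, which the rule limited. How much of the other cells' markers is free RNA from other cells was not tested.

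The share of Icos-positive T cells varied more between libraries of one group than between the groups. They made up 0.546, 5.34 and 3.15% of kept cells in wounded libraries 1, 2 and 3 (41, 244 and 130 cells). In un-wounded libraries 1 and 2 they made up 0.418 and 1.75% (22 and 94 cells). The mean was 3.01 ± 2.40% in wounded skin (SD, n = 3) and 1.08 ± 0.941% in un-wounded skin (SD, n = 2). The difference of 1.93 percentage points had an exact two-sided permutation p of 0.4, where 10 assignments of libraries allow no p under 0.1. Exact Clopper-Pearson 95% intervals, which cover counting error only, separated wounded libraries 2 and 3 from both un-wounded ones, while wounded library 1 lay between the un-wounded ones and its interval overlapped that of un-wounded library 1. Libraries also differed in their other cells. Keratinocyte-gated cells numbered 2470, 143 and 278 in wounded libraries, against 3070 and 1638 in un-wounded ones, so a share of all cells depends on how many of these were captured.

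The same order of libraries held among CD3-positive cells. Each cell was thinned to 1500 UMIs so that depth did not set the detection of Icos. The CD3 limit was applied at full depth, and many of the CD3-positive cells rested on a single CD3 UMI. Icos was then detected in 9.85, 28.0 and 25.3% of CD3-positive cells of wounded libraries 1, 2 and 3, against 6.01 and 21.0% in un-wounded libraries 1 and 2. The groups overlapped, with means of 21.0 ± 9.78% in wounded skin and 13.5 ± 10.6% in un-wounded skin (SD, n = 3 and 2, exact permutation p = 0.5). In each group, library 1 had the lowest share by both measures. The difference of 7.53 percentage points was 0.022 without un-wounded library 1 and 15.03 without un-wounded library 2. Among cells with at least 2 CD3 UMIs, the thinned shares were 22.9, 38.6 and 38.4% in wounded libraries, against 12.5 and 34.2% in un-wounded ones.

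**Figure D1:**
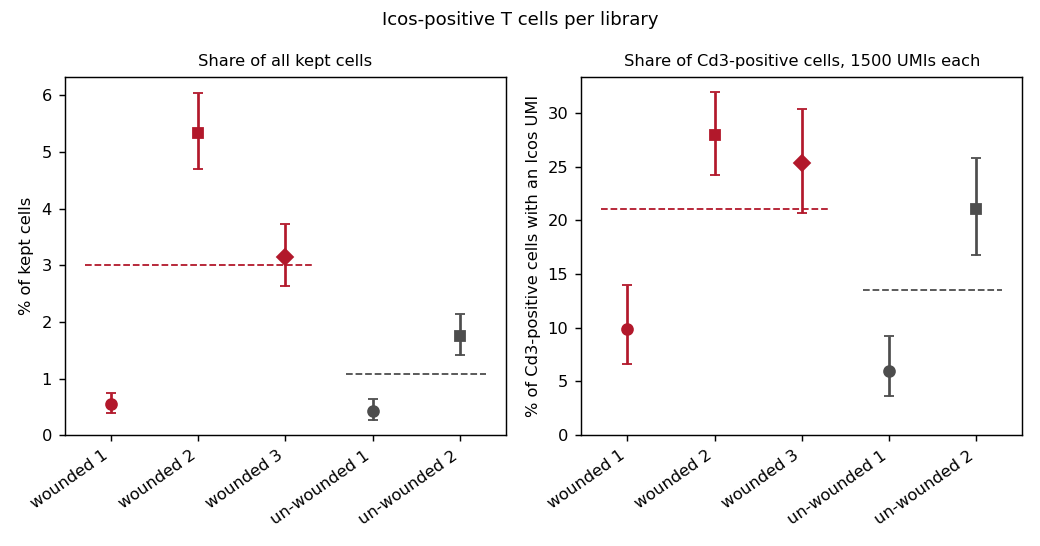
Share of Icos-positive T cells per library, wounded libraries (red) left of un-wounded ones (grey), as a percentage of all kept cells and, at 1500 UMIs per cell, of CD3-positive cells. Bars are exact 95% binomial intervals and dashed lines are group means; wounded library 1 sits at 0.546 and 9.85%, far below the other wounded libraries.

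The members were not one kind of T cell. Foxp3 was detected in 119 of the 531 cells. A UMI of a type 17 gene was found in 109 cells; these genes are the cytokines Il17a and Il17f, the receptor Il23r, and Cd163l1 and 5830411N06Rik, which in mice mark gamma-delta T cells. Both were found in 7 cells. A type 17 gene was thus found in 5.88% of the members with Foxp3, against 24.8% of those without. A CD8 chain gene (Cd8a or Cd8b1), which marks cytotoxic T cells, was detected in 56 members, 10 of them with Foxp3, and Ifng in 45 members, 2 of them with Foxp3. Beside the 119 of 531 for all members, the count of 10 of 56 is not far from the overall share of Foxp3. The coreceptor gene Cd4 was detected in 93 members. These are counts of cells with a UMI, not of cells that express the gene. In keratinocyte- and fibroblast-gated cells of the 5 libraries, Foxp3 had a UMI in 0 to 0.276% of cells, Cd4 in 0 to 0.227%, Ifng in 0 to 0.551% and each CD8 chain gene in at most 0.699%. The highest of the type 17 genes there was Il17a, in 0 to 2.10% of cells. Those cells were deeper than the members, with medians of 4952 to 10945 UMIs per library.

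Foxp3-positive members carried the other genes known from regulatory T cells. Ctla4 was detected in 102 of the 119 cells with Foxp3 (85.7%), against 19.4% of the members without. Il2ra, the high-affinity interleukin 2 receptor chain, was found in 61.3% of cells with Foxp3, against 18.7% without, and Cd4 in 41.2%, against 10.7%. All shares in this paragraph come from unthinned cells, and those with and without Foxp3 pool the libraries. Cells with Foxp3 were deeper than those without in wounded libraries and shallower in un-wounded ones. Tested by library, the difference in Cd4 did not pass, as given below. Il1rl1, the interleukin 33 receptor, was detected in 67 of the 119 cells, while fibroblast-gated cells had an Il1rl1 UMI in 0 to 18.8% of cells per library. Cxcr6 ran the other way, found in 22.7% of cells with Foxp3, against 70.4% of those without. Among cells with a type 17 gene, Cxcr6 was detected in 84.4%.

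Counted without thinning, the shares of both kinds differed between libraries without following the wound. Foxp3 was detected in 34.1, 18.03 and 23.8% of members of wounded libraries 1, 2 and 3, against 22.7 and 26.6% in un-wounded libraries 1 and 2. Type 17 genes were detected in 4.88, 20.1 and 30% of members of wounded libraries, against 31.8 and 12.8% in un-wounded ones. The groups overlapped for both. For Foxp3 the comparison depended on depth: after thinning to 1500 UMIs it was found in 12.2, 7.38 and 10.8% of members of wounded libraries, against 18.2 and 17.02% in un-wounded ones, and the groups did not overlap.

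Several other lineage and activation genes separated the groups after thinning. Cd28 was detected in 31.7, 27.5 and 21.5% of members of wounded libraries, against 50% and 45.7% in un-wounded ones. Ctla4 was detected in 22.0, 15.2 and 23.8% of members of wounded libraries, against 50% and 34.0% in un-wounded ones. Nkg7, a granule gene of cytotoxic cells, went the other way, with 39.0, 29.1 and 26.9% in wounded libraries, against 13.6 and 15.96% in un-wounded ones. Cd8b1 and the division marker Mki67 were also detected in more members of every wounded library than of either un-wounded one. Their highest shares were 7.32 and 4.88%. Un-wounded library 1 had neither, but its 22 members do not exclude a share under 13.6%. By contrast, Cxcr6 was found at 41.7 ± 2.45% in wounded and 42.9 ± 3.56% in un-wounded libraries (SD, n = 3 and 2). The groups did not overlap for 14 of the 30 genes looked at. By a different measure, the members' summed CPM, they did not overlap for 29.8% of all 5005 genes tested. Over the 30 genes, 11 reached the smallest exact permutation p of 0.1, and none passed adjustment over these genes (adjusted p = 0.273 at the lowest). Gata3 was among the 11, and keratinocyte-gated cells had a Gata3 UMI in 19.6 to 39.6% of cells. The part of RNA from other cells in the Gata3 share was not tested. Without thinning Cd28 overlapped between the groups, at 49.2 ± 2.56% in wounded and 53.7 ± 5.27% in un-wounded libraries.

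**Figure D2:**
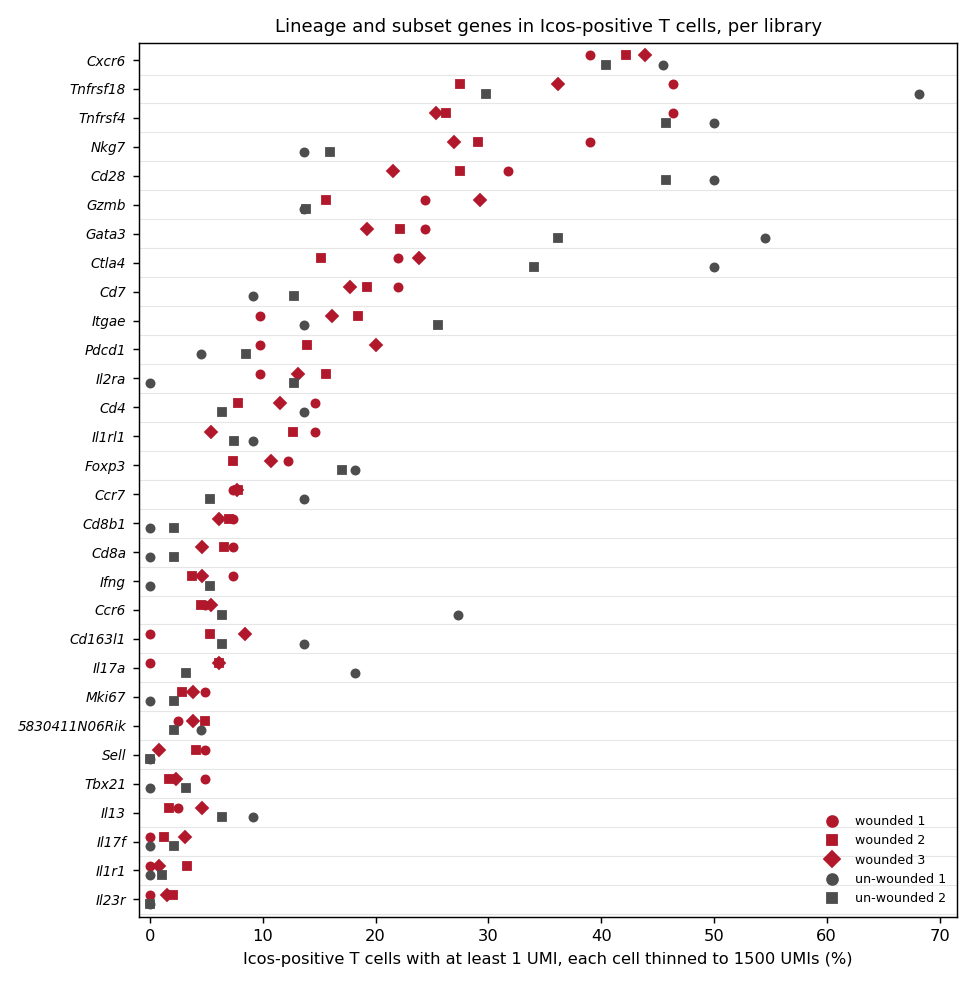
Percentage of Icos-positive T cells with at least 1 UMI of each lineage or subset gene, each cell thinned to 1500 UMIs, one point per library (wounded red, un-wounded grey). Cxcr6 lies between 39.0 and 45.5% in the 5 libraries, while Ctla4 and Cd28 are higher in both un-wounded libraries and Nkg7 in all 3 wounded ones.

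Icos-positive T cells were next set beside the 1277 CD3-positive cells that passed the same limits without an Icos UMI, within each library. Ctla4, Foxp3, Tnfrsf4, Cd28 and other genes of regulatory and activated T cells were higher in the Icos-positive cells of all 5 libraries. Over 8536 genes tested with edgeR's quasi-likelihood test and library as a block, 2867 changed at a Benjamini-Hochberg adjusted p under 0.05 (33.6%), 1278 of them higher (15.0%) and 1589 lower (18.6%). The Icos-negative cells are a mixture. Between 50.8 and 68.7% of them per library had a single CD3 UMI, and their fibroblast markers summed to 22214 to 49911 CPM, against 992 to 12349 CPM in the Icos-positive cells. All 8 fibroblast markers and all 8 keratinocyte markers tested were lower in Icos-positive cells. The comparison was therefore repeated with cells of both classes that held at least 2 CD3 UMIs, a choice made after seeing the data.

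With at least 2 CD3 UMIs, 409 of 4636 genes changed (8.82%), 188 higher (4.06%) and 221 lower (4.77%). Icos-positive cells numbered 36, 224 and 122 in wounded and 21 and 84 in un-wounded libraries, and Icos-negative cells 73, 149 and 81 in wounded and 131 and 103 in un-wounded libraries. All 8 of the regulatory T cell genes tested were higher (Il10, Ctla4, Foxp3, Tnfrsf4, Tnfrsf9, Tnfrsf18, Il2ra and Ikzf2), with a median log2 fold change of 2.81, beside -0.03 over all genes. Ctla4 had 459, 311 and 361 CPM in Icos-positive cells of wounded libraries 1, 2 and 3 and 485 and 438 CPM in those of un-wounded libraries 1 and 2. In Icos-negative cells of the same libraries it had 17.8, 17.2 and 60.03 CPM and 19.98 and 8.16 CPM. The classes did not overlap, and the log2 fold change was 4.07 (edgeR adjusted p = 0.000884). Over all CD3-positive cells it was 5.74 ± 0.33 (SE, edgeR adjusted p = 1.28e-06).

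Foxp3 averaged 125 ± 26.6 CPM in Icos-positive cells and 7.07 ± 10.2 CPM in Icos-negative cells (SD, n = 5 libraries), higher in 5 of 5 libraries (log2 fold change 3.95, edgeR adjusted p = 0.00193). Receptors of the tumour necrosis factor family that costimulate T cells rose with it. Tnfrsf4, which encodes OX40, averaged 877 ± 269 CPM in Icos-positive and 82.6 ± 85.0 CPM in Icos-negative cells, and the log2 fold change was 3.71. Tnfrsf9, which encodes 4-1BB, had a log2 fold change of 1.90 and Tnfrsf18, which encodes GITR, one of 1.84. The neighbour gene Cd28 averaged 409.95 ± 166 CPM in Icos-positive and 87.8 ± 35.3 CPM in Icos-negative cells (2.07, edgeR adjusted p = 0.00339). The inhibitory receptor gene Pdcd1 was higher by 2.25 on the log2 scale, the coreceptor gene Cd4 by 2.61 and the cytotoxic protease gene Gzmb by 2.83. Ccr7, a homing receptor for lymph nodes, was higher by 3.24, and Cd5, a T cell surface receptor, by 2.81. Cxcr6 averaged 613 ± 256 CPM in Icos-positive and 254 ± 50.9 CPM in Icos-negative cells (1.13, edgeR adjusted p = 0.0124).

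Genes of natural killer and epidermal-type T cells were lower in Icos-positive cells. The lists of these genes share Klrd1, Fcer1g and Tyrobp. With at least 2 CD3 UMIs, all 5 natural killer markers tested fell, as did 9 of 12 epidermal-type T cell genes, while Gzmb of that list rose, beside 4.77% of all genes falling. Over all CD3-positive cells, 4 of 7 natural killer markers were lower and 1 higher (Gzma), and 5 of 12 epidermal-type genes were lower and 2 higher (Gzmb and Il2rb), beside 18.6% of all genes lower. Xcl1, a chemokine that attracts cross-presenting dendritic cells, had 199, 743 and 143 CPM in Icos-positive cells of wounded libraries and 112 and 107 CPM in those of un-wounded libraries. In Icos-negative cells it had 1429, 1617 and 2213 CPM and 2515 and 1655 CPM. The classes did not overlap (log2 fold change -3.20, edgeR adjusted p = 0.0018). Fcer1g, a signalling adaptor of natural killer and myeloid cells, averaged 210.1 ± 122 CPM in Icos-positive and 1546 ± 515 CPM in Icos-negative cells (-2.95), and the killer lectin receptor gene Klrd1 46.0 ± 36.4 and 397 ± 128 CPM (-3.06). Cd7 averaged 279 ± 121 and 1878 ± 1354 CPM (-2.53, edgeR adjusted p = 0.00121). Over all CD3-positive cells Cd7 did not pass, with a log2 fold change of -0.67 (edgeR adjusted p = 0.124), and neither did Nkg7 at -0.19 (edgeR adjusted p = 0.777), which fell by 1.98 with at least 2 CD3 UMIs. The inhibitory receptor genes Lag3, Cd160, Cd96 and Cd244 were lower as well, while Ctla4 and Pdcd1 were higher.

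**Figure D3:**
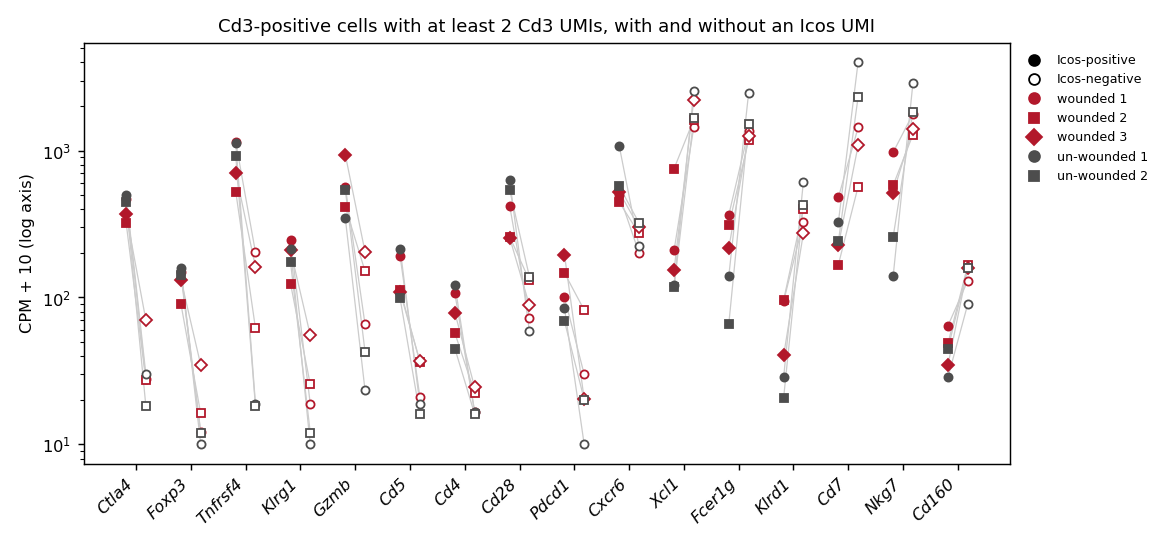
CPM (plus 10, log axis) of 16 genes in Icos-positive (filled) and Icos-negative (open) cells with at least 2 CD3 UMIs, lines joining the same library (wounded red, un-wounded grey). Ctla4, Foxp3 and Tnfrsf4 are higher in the Icos-positive cells of every library, and Xcl1, Fcer1g, Klrd1 and Cd7 in the Icos-negative cells of every library.

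Within the Icos-positive T cells, cells with a Foxp3 UMI were compared with cells without one, a comparison added after seeing the data. The 4 libraries with at least 10 cells in each class entered: wounded libraries 1, 2 and 3 and un-wounded library 2, with 14, 44, 31 and 25 cells with Foxp3 and 27, 200, 99 and 69 without. Of 3307 genes tested, 154 changed (4.66%), 62 higher (1.87%) and 92 lower (2.78%). Without TMM scaling, which moved the median log2 fold change of all genes to 0.13, the calls were 83 higher and 53 lower. Members with Foxp3 had more RNA of the other regulatory T cell genes, with 6 of 7 tested rising, and less of Cxcr6, Thy1 and the CD8 chain genes. Median depths were 4092, 4307.5, 6175 and 3157 UMIs with Foxp3 and 3683, 3597, 4070 and 3753 UMIs without.

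Ctla4 had 809, 961, 729 and 870.4 CPM in cells with Foxp3 from wounded libraries 1, 2 and 3 and un-wounded library 2, against 92.3, 72.8, 87.0 and 207 CPM in cells without. It did not overlap between the classes (log2 fold change 2.86 ± 0.27 SE, edgeR adjusted p = 0.0024). Tnfrsf4 had 1693, 1512, 1428 and 1929.9 CPM in cells with Foxp3, against 438, 138, 159.8 and 346 CPM in cells without (2.65 ± 0.25, edgeR adjusted p = 0.0024). Tnfrsf9 rose by 2.21 ± 0.18 on the log2 scale, Ikzf2, which encodes the regulatory T cell factor Helios, by 2.10, Il2ra by 1.88 and Tnfrsf18 by 1.72. Il1rl1 averaged 185 ± 103 CPM with and 28.9 ± 10.1 CPM without Foxp3 (2.59 ± 0.27, edgeR adjusted p = 0.00324, higher in 4 of 4 libraries). The killer lectin receptor gene Klrg1, a mark of antigen-experienced T cells, rose by 2.79 ± 0.58. Cd4 averaged 90.1 ± 34.0 CPM with and 34.0 ± 14.4 CPM without Foxp3, which did not pass (1.13, edgeR adjusted p = 0.0692). Cd28 averaged 306 ± 104 and 329 ± 148 CPM, a log2 fold change of -0.14 (edgeR adjusted p = 0.782).

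On the other side, Cxcr6 had 114, 102, 59.9 and 136 CPM in cells with Foxp3, against 592, 525, 755 and 659 CPM in cells without (-2.80 ± 0.27, edgeR adjusted p = 0.0024). The classes did not overlap in any library. Cd8a was counted in 1 of the 4 libraries with Foxp3, at 3.53 CPM, against 185, 65.1, 72.8 and 42.0 CPM in cells without. Tcf7, which encodes a factor of naive and memory T cells, averaged 6.38 ± 6.51 CPM with and 83.0 ± 31.4 CPM without Foxp3 (-3.73 ± 0.40, edgeR adjusted p = 0.00324). Thy1, a pan-T surface marker of mice, averaged 413 ± 124 and 773 ± 75.3 CPM (-1.09, edgeR adjusted p = 0.0175). Furin, which encodes a protein-processing protease, fell by 2.56 on the log2 scale, Nkg7 by 2.02 and Tmem176a by 2.51. Call counts were sensitive to single libraries: 14 genes changed without wounded library 2, 15 without wounded library 3, 62 without un-wounded library 2 and 172 without wounded library 1. Ctla4, Tnfrsf4, Tnfrsf9, Cxcr6 and Furin were called under all 9 alternatives.

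**Figure D4:**
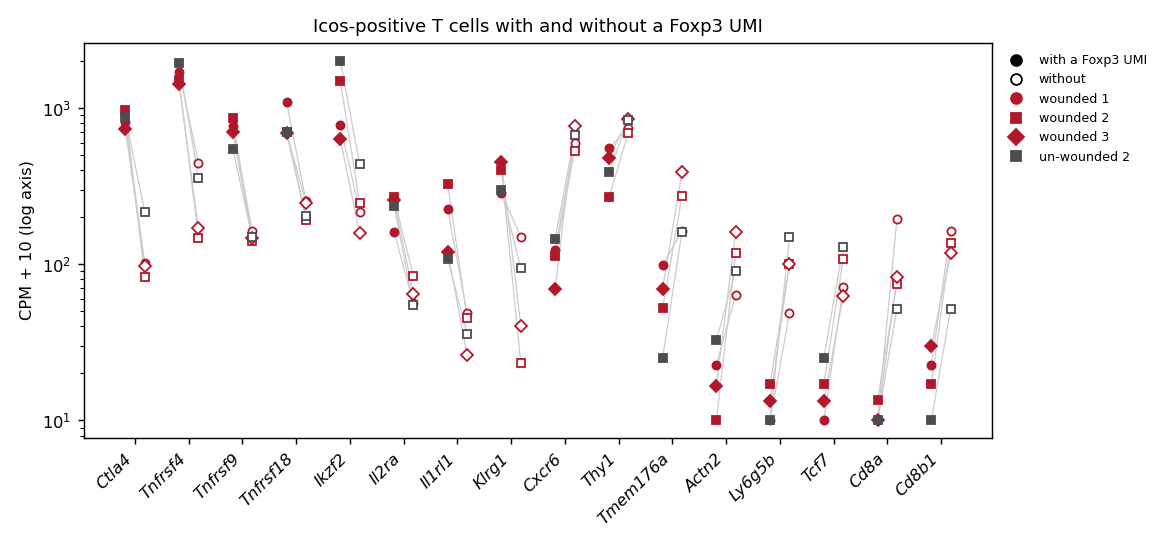
CPM (plus 10, log axis) of 16 genes in Icos-positive T cells with (filled) and without (open) a Foxp3 UMI, lines joining the same library (3 wounded red, 1 un-wounded grey). Ctla4, Tnfrsf4 and Tnfrsf9 are higher with Foxp3 in all 4 libraries and Cxcr6 is lower in all 4.

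Members with a UMI of a type 17 gene, as named above, were compared with the other members. These genes include Cd163l1 and 5830411N06Rik, so part of the set may rest on gamma-delta markers alone. How large that part is was not tested. Wounded libraries 2 and 3 and un-wounded library 2 had enough members with a type 17 gene, with 49, 39 and 12 cells with one and 195, 91 and 82 without. The cells without include those with Foxp3, so this comparison and the one above are not independent. Of 3179 genes tested, 20 changed (0.629%), 14 higher (0.44%) and 6 lower (0.189%). Without TMM scaling they were 11 higher and 10 lower. The genes that rose include Blk, a Src-family kinase known from B cells and from interleukin 17 producing gamma-delta T cells of mice. The cells were chosen in part by markers of gamma-delta T cells, so a rise of Blk is not independent of that choice. Blk had 97.1, 191 and 248.5 CPM in cells with a type 17 gene of wounded libraries 2 and 3 and un-wounded library 2, against 15.3, 4.99 and 23.9 CPM in cells without (3.59 ± 0.44, edgeR adjusted p = 0.0211). Actn2, an actin crosslinker of muscle, had 204, 295 and 248.5 CPM with, against 56.9, 33.3 and 31.8 CPM without (2.62 ± 0.32, edgeR adjusted p = 0.0211). Neither overlapped between the classes. Zbtb16, which encodes PLZF, the factor of innate-like T cells, had 72.8, 77.5 and 46.6 CPM with and 24.4, 9.98 and 7.95 CPM without, which did not pass (2.23, edgeR adjusted p = 0.0876).

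The membrane protein genes Tmem176b and Tmem176a, known from type 17 cells and myeloid cells, rose by 1.65 ± 0.18 and 1.62 ± 0.24 on the log2 scale. They lie head to head on chromosome 6 and overlap by 0.577 kb at their starts. Strand use in the counting is not stated, and whether they share reads there was not tested. Furin, lower in cells with Foxp3, rose by 1.18 ± 0.17 with a type 17 gene. In the other direction, Klrg1 averaged 15.3 ± 5.49 CPM with and 176 ± 58.0 CPM without a type 17 gene (-3.45 ± 0.35, edgeR adjusted p = 0.01). Gzmb fell by 2.46 on the log2 scale, Tnfrsf4 by 2.18 and Tnfrsf18 by 1.69. Foxp3 averaged 27.0 ± 5.53 CPM with and 119 ± 31.3 CPM without, lower in 3 of 3 libraries, which did not pass (-2.03, edgeR adjusted p = 0.0609). Cxcr6 averaged 749.8 ± 135 and 403 ± 56.2 CPM (0.97, edgeR adjusted p = 0.0741), which did not pass either. Leaving out wounded library 2 left 4 genes, leaving out wounded library 3 left none (212 at an unadjusted p under 0.05), and 181 genes changed without un-wounded library 2.

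The 5 genes below that moved with one or the other set are shown by the 250 bases before their start, from RefSeq on GRCm38.p6, 5′ to 3′ along the gene. Ctla4, Tnfrsf4 and Tnfrsf18 rose with Foxp3, and Tnfrsf4 and Tnfrsf18 are neighbours 9.55 kb apart on chromosome 4. Actn2 and Tmem176b rose with the type 17 genes, and Tmem176b has 3 listed starts, of which the first is shown. Capitals mark a match to one of 3 motifs searched on both strands: AP-1 (TGANTCA), STAT (TTCNNNGAA) and forkhead (TGTTTAC).
Ctla4 (chr1:60908775-60909024, plus strand): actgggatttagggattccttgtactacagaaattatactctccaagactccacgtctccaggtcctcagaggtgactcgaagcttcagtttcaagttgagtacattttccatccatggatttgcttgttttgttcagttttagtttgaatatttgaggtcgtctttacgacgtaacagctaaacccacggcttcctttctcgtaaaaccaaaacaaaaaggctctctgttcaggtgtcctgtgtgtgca
Tnfrsf4 (chr4:156013445-156013694, plus strand): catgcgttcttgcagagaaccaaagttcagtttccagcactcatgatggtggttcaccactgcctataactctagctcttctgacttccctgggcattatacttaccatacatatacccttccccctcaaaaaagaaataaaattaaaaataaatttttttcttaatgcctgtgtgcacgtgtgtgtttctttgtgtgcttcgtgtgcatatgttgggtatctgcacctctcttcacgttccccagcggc
Tnfrsf18 (chr4:156026072-156026321, plus strand): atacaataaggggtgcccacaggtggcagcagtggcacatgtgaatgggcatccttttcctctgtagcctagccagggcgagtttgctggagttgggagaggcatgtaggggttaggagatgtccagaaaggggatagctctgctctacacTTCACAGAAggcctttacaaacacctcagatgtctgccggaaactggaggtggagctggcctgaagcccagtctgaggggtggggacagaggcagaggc
Actn2 (chr13:12340733-12340982, minus strand): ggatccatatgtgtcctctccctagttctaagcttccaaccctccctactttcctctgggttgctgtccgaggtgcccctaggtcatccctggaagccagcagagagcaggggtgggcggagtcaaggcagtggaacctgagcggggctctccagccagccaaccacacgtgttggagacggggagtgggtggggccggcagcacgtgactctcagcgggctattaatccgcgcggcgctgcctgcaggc
Tmem176b (chr6:48841138-48841387, minus strand): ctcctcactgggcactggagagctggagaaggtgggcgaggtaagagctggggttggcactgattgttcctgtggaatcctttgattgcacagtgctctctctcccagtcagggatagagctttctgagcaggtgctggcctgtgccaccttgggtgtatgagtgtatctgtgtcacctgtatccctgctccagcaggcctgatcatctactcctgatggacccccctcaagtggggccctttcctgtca
Tnfrsf18 held 1 STAT match, 99 bases before its start. The other 4 windows held none of the 3 motifs. Over all 32851 promoters of the same length in the table, 6.75% held the AP-1 letters, 7.02% STAT, 3.17% forkhead and 15.99% at least one of them. Icos and Cd28 are not shown.

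Between wounded and un-wounded skin, Icos-positive T cells differed by few genes that passed the test. Of 5005 genes tested, 2 changed (0.04%), both higher in wounded libraries, while 508 had an unadjusted p under 0.05. The groups did not overlap for 1490 of the 5005 genes (29.8%). Slpi, a secreted inhibitor of leukocyte proteases, had 153, 119 and 123 CPM in wounded libraries 1, 2 and 3 and no UMI in either un-wounded library (272 UMIs against 0). It was at least 20.5-fold higher, against a floor of 3 counts over the un-wounded group (edgeR adjusted p = 0.0477). Slpi also had 101, 366 and 454 CPM over all kept cells of the wounded libraries, against 1.92 and 2.44 CPM in un-wounded ones, and 43.4% of its wounded UMIs lay in the 2 highest cells of each library. The part of free RNA from other cells in this result was not tested. The gene 2810417H13Rik, named after its values were seen, had 206, 119 and 147 CPM in wounded libraries, against 0 and 4.53 CPM in un-wounded ones (302 UMIs against 2). Its pooled ratio was 34.2, with an exact 95% counting interval of 9.39 to 284 (edgeR adjusted p = 0.0477). Over all kept cells it had 43.9, 28.6 and 44.2 CPM in wounded and 20.1 and 18.1 CPM in un-wounded libraries. Neither gene was called without un-wounded library 2, wounded library 2 or wounded library 3, when no gene passed (633, 407 and 269 genes at an unadjusted p under 0.05). DESeq2 called 33 genes.

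Proliferation genes lay higher in wounded libraries as a list, with none of the 18 listed genes called. The list does not hold 2810417H13Rik, which was called. Of 18 genes, 16 had all 3 wounded libraries above both un-wounded ones, against 15.4% of all genes tested, and 16 to 18 did so when any library was left out, when the share of all genes was 18.3 to 34.5%. Their median log2 fold change was 2.12, beside 0.04 over all genes. Summed over the list, members had 5144, 3446 and 5032 CPM in wounded libraries, against 1677 and 1375 CPM in un-wounded ones. Stmn1, a regulator of microtubules, had 741, 216 and 380.04 CPM in wounded libraries, against 36.1 and 43.0 CPM in un-wounded ones (3.39 ± 0.58, edgeR adjusted p = 0.154). Top2a, the topoisomerase of dividing cells, had 90.8, 102 and 117 CPM in wounded libraries, against 36.1 and 22.6 CPM in un-wounded ones (2.08 ± 0.39, edgeR adjusted p = 0.154). Both were without overlap, as was H2afz, a histone variant, at 1286, 1093 and 1368 CPM in wounded and 433 and 512 CPM in un-wounded libraries. In Icos-negative CD3-positive cells the list also lay higher in wounded libraries, at 2624, 1789 and 2313 CPM, against 922 and 1135 CPM in un-wounded ones. Over all kept cells Top2a had 25.4, 16.9 and 19.4 CPM in wounded and 23.0 and 24.4 CPM in un-wounded libraries. The exceptions were Cdk1 and Pcna, whose groups overlapped.

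**Figure D5:**
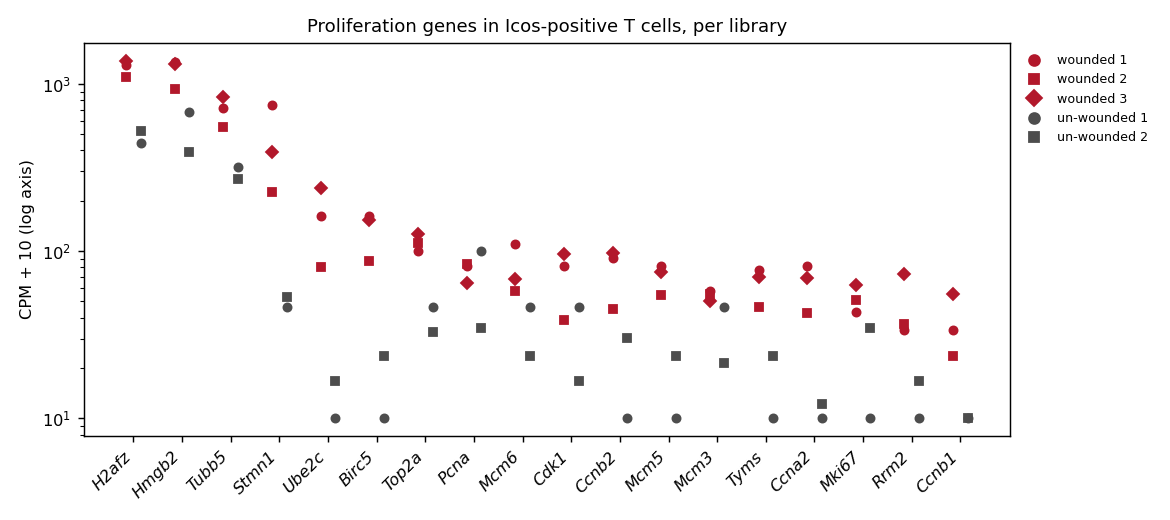
CPM (plus 10, log axis) of 18 proliferation genes summed over Icos-positive T cells of each library (wounded red, un-wounded grey). In 16 of the 18 genes the 3 wounded libraries all lie above both un-wounded ones; Cdk1 and Pcna overlap.

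Type 1 and interferon genes showed the same order, again with none called. In the type 1 and cytotoxic list, 6 of 10 genes had all wounded libraries above both un-wounded ones, and in the type I interferon list 7 of 11, beside 15.4% of all genes tested. Nkg7 had 765, 559.9 and 468 CPM in wounded libraries, against 126 and 215 CPM in un-wounded ones (1.76 ± 0.40, edgeR adjusted p = 0.209). Isg15, a ubiquitin-like protein induced by interferon, had 287, 188 and 162 CPM in wounded libraries, against 90.1 and 40.8 CPM in un-wounded ones (2.02 ± 0.40, edgeR adjusted p = 0.178). In Icos-negative CD3-positive cells the interferon list also lay higher in wounded libraries, at 4176, 3117 and 4006 CPM, against 713 and 1474 CPM in un-wounded ones. The type 1 and cytotoxic list overlapped there, at 1304, 4602 and 2942 CPM in wounded and 1449 and 2122 CPM in un-wounded libraries. In the members, natural killer markers moved alongside, at 497, 1116 and 644 CPM in wounded and 162 and 58.9 CPM in un-wounded libraries. So did neutrophil markers, at 95.6, 339.6 and 379 CPM in wounded and 18.03 and 24.9 CPM in un-wounded libraries. Epidermal-type T cell markers had 4360.3, 4177 and 3563 CPM in wounded and 1749 and 1723 CPM in un-wounded libraries, with 7 of 11 genes above in all wounded libraries. These lists share genes and are not independent. The natural killer list shares Eomes, Gzma and Prf1 with the type 1 and cytotoxic list. The epidermal-type list shares Gzmb, Gzmc, Xcl1 and Nkg7 with that list, and Klrd1, Fcer1g and Tyrobp with the natural killer list. Mast cell markers had 225, 43.7 and 165 CPM in wounded and 0 and 6.79 CPM in un-wounded libraries, and skeletal muscle markers 1209.6, 68.9 and 415 CPM in wounded and 36.1 and 9.06 CPM in un-wounded libraries. The part of these cells in the result was not tested.

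Other genes ran the other way. Ccr8, a chemokine receptor of skin regulatory and type 2 T cells, had 23.9, 20.2 and 17.6 CPM in wounded libraries, against 162 and 65.7 CPM in un-wounded ones (-2.10 ± 0.42, edgeR adjusted p = 0.178). Cd28 had 325, 229 and 224 CPM in wounded libraries, against 595 and 503 CPM in un-wounded ones (-0.98 ± 0.27, edgeR adjusted p = 0.28). Gata3, the type 2 and regulatory T cell factor, had 229, 184 and 205 CPM in wounded libraries, against 685 and 414 CPM in un-wounded ones (-1.25 ± 0.27, edgeR adjusted p = 0.208). The keratinocyte-gated cells named above also carry Gata3, and the part of their RNA in its level was not tested. These 3 genes did not overlap between the groups, which held for 717 of all genes tested in this direction (14.3%). Ikzf2 had 421, 533 and 327 CPM in wounded libraries, against 919.5 and 901 CPM in un-wounded ones. Chemokine receptors had 4 of 11 genes below in all wounded libraries, and cytokine receptor chains 6 of 16. The type 2 and tissue residency lists each had 4 of 8 below, the type 17 and regulatory T cell lists each 3 of 10. This type 17 list holds other genes beside Il17a, Il17f and Il23r, and lacks Cd163l1 and 5830411N06Rik. Early activation and AP-1 genes had 6 of 19 below. Of these lists only chemokine receptors also had a gene above in all wounded libraries, 1 of 11. Some genes are in more than 1 of the lists. Without un-wounded library 2, 40.4% of all genes tested lay below.

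Foxp3 and Ctla4 did not pass the test, although their 3 wounded libraries lay below both un-wounded ones. Foxp3 had 109.96, 74.0 and 112 CPM in wounded libraries, against 144 and 118 CPM in un-wounded ones (-0.30 ± 0.31, edgeR adjusted p = 0.829). Ctla4 had 363, 284 and 329.7 CPM in wounded libraries, against 469 and 405 CPM in un-wounded ones (-0.32 ± 0.27, edgeR adjusted p = 0.778). Icos, which chose the cells and was not tested, had 698, 685 and 613 CPM in wounded libraries, against 1496 and 969 CPM in un-wounded ones. Il17a, the cytokine, rested on few cells: it had 0, 200.1 and 139.7 CPM in wounded libraries, against 1298 and 222 CPM in un-wounded ones, and 85.9% of its un-wounded UMIs lay in the 2 highest cells of each library.

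The wound effect differed between Icos-positive and Icos-negative CD3-positive cells for 46 of 10496 genes (0.438%), 13 with a higher and 33 with a lower effect in Icos-positive cells (edgeR interaction test). With at least 2 CD3 UMIs in both classes 7 genes passed, and without un-wounded library 1 none did (648 at an unadjusted p under 0.05). Ctla2a, an inhibitor of cathepsin-like proteases, had 1033, 500.2 and 872 CPM in Icos-positive cells of wounded libraries, against 433 and 360.05 CPM in un-wounded ones. In Icos-negative cells it had 622, 384 and 571 CPM in wounded libraries, against 1984 and 1270.3 CPM in un-wounded ones (interaction 2.72, edgeR adjusted p = 0.002). With Icos-negative cells limited to those without a Cd7 UMI, the interaction turned to -0.78. Its paralog Ctla2b is close in sequence, and its reads are not fully separable. Cd83, a surface marker of activated lymphocytes and dendritic cells, ran the other way, at 282, 203 and 117 CPM in Icos-positive cells of wounded libraries, against 1731 and 491 CPM in un-wounded ones. In Icos-negative cells it had 30.1, 85.1 and 68.7 CPM in wounded libraries, against 9.24 and 14.6 CPM in un-wounded ones (interaction -4.38, edgeR adjusted p = 0.00024).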

How the data were processed

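Raw UMI counts per gene and barcode are the values the authors deposited, 1 table per library, made with Cell Ranger 1.3.1 on mm10 per the submitters' processing notes. The least deep barcodes hold 1410 to 2881 UMIs, so a filter on barcodes preceded deposit, and which one is not given in the sources used here. Strand use in counting is not given either. Cells, UMI sums and shares were computed from these counts. The T cell receptor constant genes are not analysed here, and of 357 listed genes 346 were matched in the tables. The members, gene lists and comparisons were chosen with earlier results of these data known.

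UMIs were summed per library and cell class. They were tested with edgeR 4.0.16 in R 4.3.3 (filterByExpr, TMM, quasi-likelihood F-test, Benjamini-Hochberg over all genes tested, threshold 0.05), without the 9 genes of the selection rule. Class comparisons had library as a block, and a library with under 10 cells in either class was left out, which removed un-wounded library 1 from the Foxp3 comparison and un-wounded 1 and wounded 1 from the type 17 comparison. Both comparisons and the repeat with at least 2 CD3 UMIs as a main reading were chosen after seeing the data. The fits were tested on simulated data. Printed CPM are plain, while fold changes carry TMM scaling.

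Named genes had an adjusted p under 0.05, a log2 fold change of 1 or more in size, 50 CPM or more in the higher group, and no overlap between groups or the same direction in every library. Mitochondrial, ribosomal, Gm-number, Rik and rule genes were excluded. The 12 largest rises and falls of each comparison and the 3 most abundant genes of each of 34 lists could be named, with the subset genes. Some items are not reported here. Other list members were named after their values were seen. Shares carry exact Clopper-Pearson 95% intervals, and thinning drew 1500 UMIs per cell. Doublets were kept, and an alternative removed the highest scores of Scrublet in scanpy 1.11.5 at 0.8% per 1000 barcodes. Other alternatives were DESeq2 1.42.0, no filter, no TMM, other cell limits, and leaving out each library. Same-numbered libraries did not deviate together (r of -0.057 and 0.043 over 5014 genes), so they were not paired. Positions were taken from the GRCm38 annotation through Ensembl identifiers (27645, 98.7%), and promoters from RefSeq. Other tools were Python 3.11.15, numpy 2.4.6, scipy 1.17.1, pandas 2.3.3 and matplotlib 3.10.9.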

Additional observations from a re-analysis of the deposited data

Results flagged for a closer look

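The wound effect differed between Icos-positive and Icos-negative CD3-positive cells for 23 named genes, by edgeR's interaction test (adjusted p under 0.05). Values are the log2 wound effect in Icos-positive cells minus that in Icos-negative cells, and a positive value means a higher effect in Icos-positive cells. On the positive side, 5 genes belong to the epidermal-type T cell list: Klrd1 at 3.03, Ctla2a at 2.72, Nkg7 at 2.51, Fcer1g at 2.26 and Cd7 at 1.89. Ctla2b was at 4.05 and Klrb1b at 3.33. Cd247, a T cell receptor signalling chain, was at 2.12, Stmn1 at 2.38 and Igfbp2 at 3.76. Ly6c2 was fitted at 9.32, which is no measure of size, since un-wounded Icos-positive cells had no UMI of it.

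On the negative side Il1rl1 was fitted at -7.23, which is no measure of size either, since un-wounded Icos-negative cells had nearly no UMI of it. Others were Postn at -4.74, Cd83 at -4.38, Kcnn4 at -3.90, Rgs16 at -3.69, Ccr7 at -3.68, Ifi27l2a at -3.49 and Il17a at -3.28. Ctss at -3.11, Dusp4 at -2.99, Cxcl2 at -2.76 and Hist1h2bc at -2.63 completed them. Much of the contrast lay in Icos-negative cells. Cd7 had 297, 181 and 256 CPM in Icos-negative cells of wounded libraries, against 1049 and 673 CPM in un-wounded ones, while Icos-positive cells had 387, 171 and 206 CPM in wounded and 307 and 202 CPM in un-wounded libraries. Il1rl1 had 109, 80.6 and 115 CPM in Icos-negative cells of wounded libraries, against 0 and 0.585 CPM in un-wounded ones. In Icos-positive cells Il1rl1 had 105, 103 and 51.6 CPM in wounded and 72.1 and 47.6 CPM in un-wounded libraries.

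With at least 2 CD3 UMIs, Ctla2a, Ctla2b, Fcer1g, Cd83, Ifi27l2a and Il17a still passed. With Icos-negative cells limited to those without a Cd7 UMI, the sign turned for Ctla2a (-0.78), Fcer1g (-0.80), Cd247 (-0.70), Klrd1 (-0.29) and Nkg7 (-0.89). Il17a and Ccr7 rested on few un-wounded cells, with 85.9 and 88.0% of UMIs in the 2 highest cells of each library. Ly6c2, Ctla2a, Ctla2b and the Klr genes have close paralogs, and their values are uncertain for that reason. The makeup of the Icos-negative cells, and its part in these differences, was not tested.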

How the results depend on the processing

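The differences in share, 1.93 points of all cells and 7.53 points of CD3-positive cells after thinning, stayed positive under every alternative run. Where all 5 libraries entered, the exact permutation p was 0.3 or more, and none under 0.1 was possible. When one library was left out, the differences were between 0.765 and 3.16 and between 0.022 and 15.03 points. That left 4 or 6 assignments of libraries, too few for a p to be read. Counts of changed genes moved more, and the cause was not tested. Wounded against un-wounded, 2 genes became 263 with no filter on low counts, 5 without TMM, 33 with DESeq2, 33 with at least 2 CD3 UMIs, 14 with at least 5, 38 when each gene's 2 highest cells were removed, and 0 with the highest Scrublet scores removed or at least 2 Icos UMIs (467 and 483 at an unadjusted p under 0.05). Leaving out one library gave 0 to 111 genes. The replicate block gave 35 genes, although the numbers do not pair the libraries. For Icos-positive against Icos-negative cells, 2867 became 1661 with no library block, 409 with at least 2 CD3 UMIs, 336 with at least 5, 1436 without cells rich in fibroblast collagen, 292 with classes assigned after thinning, and 1949 to 3039 without one library. DESeq2's size factors moved the median of all genes from -0.02 to -0.18 there. For the difference of the wound effect, 46 became 104 with no filter, 28 with DESeq2, 95 with the highest Scrublet scores removed, 7 and 8 with at least 2 and 5 CD3 UMIs, 25 at a mitochondrial limit of 5%, 19 with Icos-negative cells without a Cd7 UMI, and 0 to 117 without one library. For the Foxp3 classes, 154 became 455 with no filter, 97 with DESeq2 and 14 to 172 without one library. For the type 17 classes, 20 became 182 with no filter, 152 with the highest Scrublet scores removed, 51 with at least 2 CD3 UMIs and 0 to 181 without one library. Of the genes named in these 5 comparisons, 0 of 1, 22 of 42, 0 of 23, 9 of 27 and 0 of 15 passed in every alternative. Signs turned for 5830411N06Rik (-0.11), Ifng (-0.049) and Itgae (-0.075) with at least 2 CD3 UMIs in both classes. They turned for Ifng (-0.14) and Itgae (-0.33) with at least 5, and for Cd163l1 (-0.033) and Ifng (-0.011) with classes assigned after thinning. With Icos-negative cells limited to those without a Cd7 UMI, which sets Cd7 to 0 there, the class difference turned for Nkg7 (3.44) and Cd7 (11.05). The difference of the wound effect turned for Cd247 (-0.70), Fcer1g (-0.80), Klrd1 (-0.29), Nkg7 (-0.89) and Ctla2a (-0.78). Depth limits the un-wounded side most: library 1 holds 22 members and 55464 UMIs.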

Other observations

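Icos UMIs were found outside the members too. Of 843 kept cells with an Icos UMI, 246 had no UMI of Cd3d, Cd3e or Cd3g, which were 24, 91 and 49 cells in wounded libraries and 11 and 71 cells in un-wounded libraries. They were not analysed further. Among the members, Il1rl1 was detected in 99 cells, of which 67 had Foxp3, 73 Gata3 and 8 a type 17 gene. Gzmb was detected in 152 members, of which 60 had Foxp3, 21 a CD8 chain gene and 16 Ifng. Mki67 was detected in 47 members, 17 of them with Foxp3, 10 with a CD8 chain gene and 5 with a type 17 gene. These sets overlap, and the counts come from unthinned cells.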
